A study of Rattus norvegicus with 18 samples.

Results

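Transglutaminases are represented here by 4 genes, Tgm1, Tgm2, Tgm3 and F13a1, of the 14217 rat genes that had a probe set with a single gene symbol on the Affymetrix Rat Genome 230 2.0 array. Together the 4 genes have 6 probe sets, since Tgm2 and F13a1 have 2 each, and all 6 were kept, with no filter on dim probe sets. The genes were chosen with results of these same arrays known, so their differences between groups are given as a description, and no p-value is given for them. The arrays read colon RNA of rats given an enema of TNBS (trinitrobenzenesulfonic acid, 10 mg in 50% ethanol), a hapten that sets off colitis, and sampled on day 2, 5, 7 or 14, with 3 rats on each day, or of 6 healthy rats given a saline enema, whose sampling day is not stated. The treated rats were picked for the arrays by inflammatory markers (myeloperoxidase activity, weight loss and the weight-to-length ratio of the colon). Neither strain, sex and age nor a group given ethanol without TNBS is described in the labels, so TNBS and ethanol cannot be told apart.

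Transglutaminases join glutamine and lysine side chains of proteins through a bond that proteases cut poorly, and they need calcium to do so. Tgm2, tissue transglutaminase, is the widespread form of endothelium, smooth muscle, fibroblasts and macrophages, and it crosslinks fibronectin and other matrix proteins. F13a1 encodes the catalytic A subunit of coagulation factor XIII, which is carried by platelets and made by macrophages and knits fibrin strands into a stable clot. Tgm1 and Tgm3 are the forms known from the epidermis and the hair follicle, where they crosslink the cornified envelope of keratinocytes. The colon wall was homogenised in full thickness, so epithelium, muscle, vessels and leukocytes were read together.

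The annotated starts of Tgm1 and Tgm3 differ in the letters just upstream, and these windows are shown because the probe sets of these genes stood on opposite sides of the controls on day 7. The windows are the 250 bases before the start in RefSeq annotation of the assembly GRCr8, at chr15:33174268-33174517 on the minus strand for Tgm1 and at chr3:137681559-137681808 on the plus strand for Tgm3. Capitals mark matches to 4 motifs searched on both strands, and no matches overlapped. The motifs were the TATA box, spelled TATAAA, the CCAAT box, spelled as its name, the GC box, spelled GGGCGG, and the AP-1 site, spelled TGANTCA.
Tgm1: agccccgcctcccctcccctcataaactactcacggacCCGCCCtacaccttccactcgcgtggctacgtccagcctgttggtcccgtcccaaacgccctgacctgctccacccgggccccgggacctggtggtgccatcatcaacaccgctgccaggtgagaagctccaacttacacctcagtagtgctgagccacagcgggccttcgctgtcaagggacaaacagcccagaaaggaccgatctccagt
Tgm3: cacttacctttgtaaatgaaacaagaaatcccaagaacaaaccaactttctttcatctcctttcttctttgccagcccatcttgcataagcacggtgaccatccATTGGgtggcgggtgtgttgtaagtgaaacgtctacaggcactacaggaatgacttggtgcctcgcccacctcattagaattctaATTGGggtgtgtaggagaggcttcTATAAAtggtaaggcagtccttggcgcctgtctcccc
The Tgm3 window holds TATAAA with its first base at position -37 and CCAAT, read on the opposite strand, at positions -146 and -61. The Tgm1 window holds a single GC box, read on the opposite strand, at position -212. The F13a1 window holds none of the 4 motifs, and TGANTCA is in none of the 3 windows. Over all 33469 windows of this length, 12.9% hold TATAAA, 34% hold CCAAT, 30.5% hold GGGCGG and 6.34% hold TGANTCA. These matches describe the letters of the windows and do not say that a factor binds there.

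The values are the deposited log2 signals, which did not have the same distribution in treated and control arrays. The array medians lay between 5.03 and 5.07 in the 12 TNBS arrays and between 4.27 and 4.30 in the 6 control arrays, a difference of 0.762. Against control, levels are therefore given after quantile normalization across the 18 arrays, which brought the median difference over all probe sets to between -0.04 and -0.01, against 0.54 to 0.59 as deposited. A difference against control is called where limma gave a Benjamini-Hochberg adjusted p under 0.05 over 31042 probe sets, and a rise or fall is written only where the deposited values were called in the same direction. Differences between days use the deposited values. In 2 TNBS arrays before day 14, the mean correlation was higher with the day 14 arrays than with the other arrays of their own day: replicate 1 of day 2, with 0.9867 against 0.9702, and replicate 1 of day 5, with 0.9836 against 0.9797. The other arrays of day 2 had own-day correlations of 0.976 and 0.9705. Per the sample labels, RNA of every TNBS rat was extracted with Trizol, whereas the entry of each control refers to a manufacturer's manual; extraction and treatment cannot be told apart if the entries are taken as they stand, although the series' description names Trizol for all tissue.

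The 4 genes followed different courses. Tgm1 was far above control on days 5 and 7 and at the control level on day 14. It was also called higher on day 2, at 1.91, with arrays that overlapped the controls. Tgm2 was above control on days 5 and 7 as well, with smaller differences. On days 2 and 14 Tgm2 stood at 0.07 and -0.42, neither called after quantile normalization. Tgm3 was below control on day 7. After quantile normalization, the brighter F13a1 probe set was above control in every day 2 array and below control in every day 14 array. Neither difference was called on that scale. As deposited, its day 14 arrays overlapped the controls. After quantile normalization, 1, 2, 2 and 0 members of 4 were called higher on days 2, 5, 7 and 14, beside 9.13%, 12.1%, 12.4% and 5.61% of all probe sets. Called lower were 0, 0, 1 and 0 members on days 2, 5, 7 and 14, beside 9.87%, 14.5%, 15.9% and 6.09% of all probe sets. All of these member calls held on the deposited values as well. A call on both scales was met by 9.13%, 12.1%, 12.4% and 5.61% of probe sets for a rise on days 2, 5, 7 and 14. For a fall it was met by 0.522%, 1.09%, 1.07% and 0.135%. Every probe set called higher after quantile normalization was also called higher as deposited (2835, 3762, 3849 and 1741 on these days). The deposited values were therefore no added check on a rise, only on a fall. At an unadjusted limma p under 0.05 the counts of members higher and lower were the same on each of the 4 days, 0 of 4 on day 14 included. The 3 arrays of a day lay wholly above the 6 controls for 1, 2, 2 and 0 members on days 2, 5, 7 and 14, against 9%, 11.7%, 11.8% and 8.49% of all probe sets. They lay wholly below the controls for 0, 0, 1 and 1 members on days 2, 5, 7 and 14, against 9.61%, 14.4%, 15.7% and 9.61%. Since the choice of genes used these contrasts, nothing is read from the counts. The median difference of the 4 genes from control was 0.58, 0.47, 0.65 and -0.64 on days 2, 5, 7 and 14, beside -0.01, -0.02, -0.04 and -0.02 over all probe sets.

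**Figure D1:**
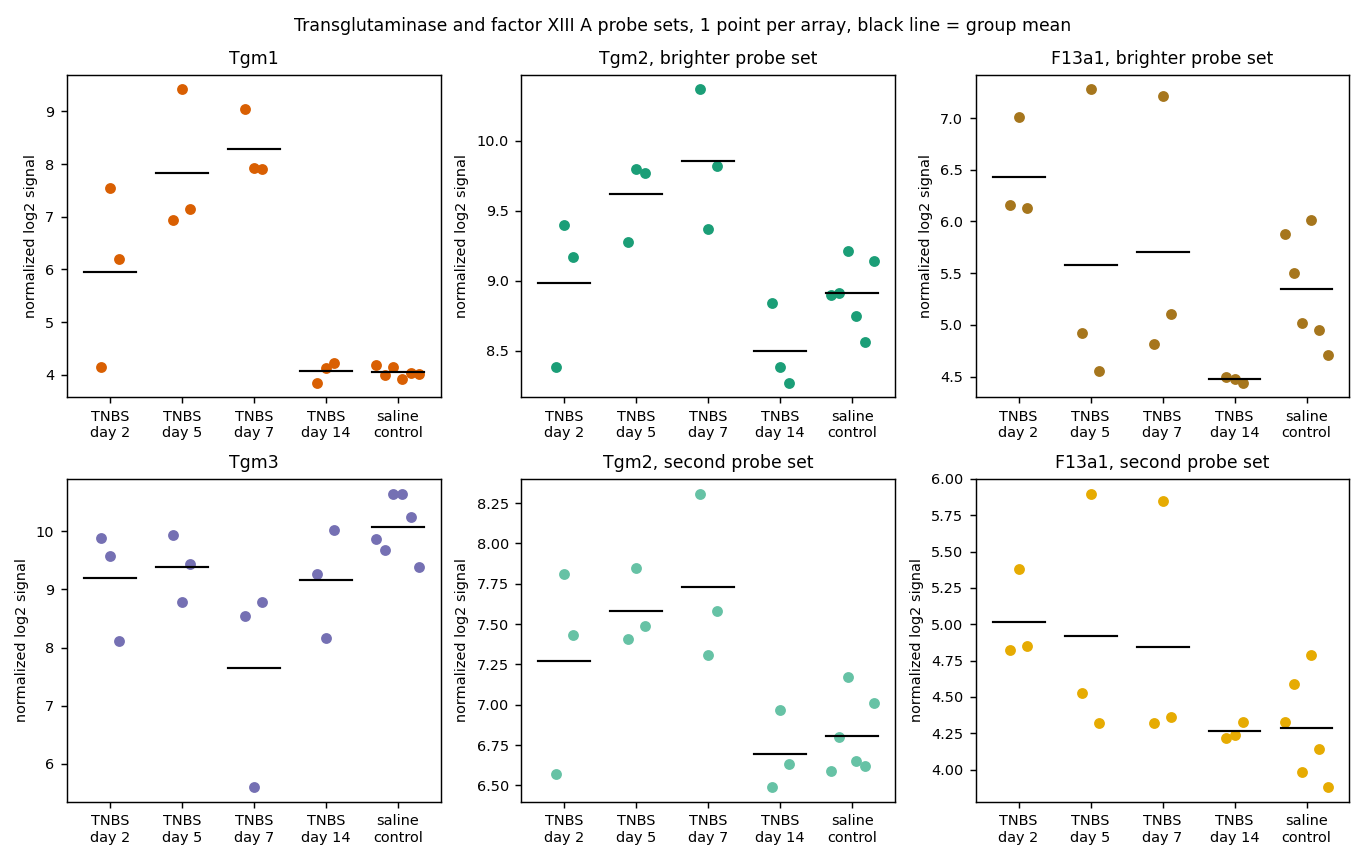
Quantile-normalized log2 level of the 6 probe sets of Tgm1, Tgm2, Tgm3 and F13a1 in each of the 18 arrays, with TNBS days 2, 5, 7 and 14 (3 arrays each) left of saline control (6 arrays); points are arrays and bars are group means. Tgm1 lies between 6.93 and 9.42 on days 5 and 7 and between 3.85 and 4.23 on day 14, beside 3.92 to 4.19 in controls, and Tgm3 has its lowest array, at 5.60, on day 7.

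Tgm1, the membrane-anchored keratinocyte form, had log2 levels of 4.14, 7.55 and 6.19 in the day 2 arrays and of 6.93, 9.42 and 7.15 in the day 5 arrays. The day 7 arrays read 9.05, 7.92 and 7.90, and the day 14 arrays 3.85, 4.12 and 4.23. The 6 controls ran from 3.92 through a median of 4.03 to 4.19. This is a low signal, at percentiles 31.5 to 38.7 of the control arrays, and the day 14 arrays lay at percentiles 29.3 to 39.4. Whether Tgm1 was detected at this level was not tested, so folds against control rest on a low reference. Every array of days 5 and 7 lay above every control. On day 2, replicate 1 lay within the controls and the other 2 lay above them, and the day 14 arrays overlapped the controls. Group means were 5.96 ± 1.72, 7.83 ± 1.38, 8.29 ± 0.66 and 4.06 ± 0.20 on days 2, 5, 7 and 14 (SD, n = 3 each) and 4.05 ± 0.10 in controls (SD, n = 6). In bulk tissue, a change in the number of cells of a type and a change of RNA per cell cannot be told apart.

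The Tgm1 difference from control was 1.91 ± 0.58 on day 2 (log2, SE), a 3.75-fold level, and it was 2.81 without replicate 1 of that day. The day 2 call was lost without control replicate 4, at 1.89, without day 2 replicate 2, at 1.11, and without day 2 replicate 3, at 1.79. On day 5 Tgm1 stood 3.78 ± 0.58 above control, or 13.7-fold, and on day 7 4.24 ± 0.58, or 18.9-fold. Leaving out any 1 array kept these between 3.00 and 4.23 on day 5 and between 3.86 and 4.43 on day 7, all called. On day 14 the difference was 0.01 ± 0.58, with a 95% interval of -1.22 to 1.25. Between days, on the deposited values, day 14 stood 4.22 ± 0.65 below day 7, a called difference of -4.22 with no overlap of arrays. Day 14 stood at -1.90 ± 0.65 against day 2, not called, and at -2.81 without replicate 1 of day 2, called. Without that array the day 2 differences of Tgm2, Tgm3 and F13a1 from control were 0.37, -1.23 and 1.22, and none was called. Without replicate 1 of day 5, the day 5 differences of Tgm1, Tgm2, Tgm3 and F13a1 from control were 4.23, 0.87, -0.97 and 0.57, and those of Tgm1 and Tgm2 were called.

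Tgm3, the form of hair follicle and epidermis that needs cleavage by a protease to become active, had log2 levels of 9.88, 9.58 and 8.12 in the day 2 arrays and 9.93, 8.79 and 9.43 in the day 5 arrays. Those of day 7 read 8.54, 5.60 and 8.78, and those of day 14 read 9.26, 8.17 and 10.03. Controls ran from 9.39 through a median of 10.05 to 10.65. Only the day 7 arrays lay wholly below the controls, and the arrays of the other 3 days overlapped them. Replicate 2 of day 7 was the lowest of all 18 arrays. Means were 9.19 ± 0.94, 9.38 ± 0.57, 7.64 ± 1.77 and 9.15 ± 0.94 on days 2, 5, 7 and 14 (SD, n = 3 each) and 10.08 ± 0.52 in controls (SD, n = 6).

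Tgm3 on day 7 stood at -2.44 ± 0.61 against control (log2, SE), which is 0.185 times the control level, and the deposited values gave -1.99. The call rested on replicate 2 of day 7, since without it the difference was -1.42 and was not called. The differences on days 2, 5 and 14 were -0.89, -0.70 and -0.93 (± 0.61), and none was called. Between days no Tgm3 difference was called, with 1.51 ± 0.70 for day 14 against day 7 and -1.66 ± 0.70 for day 7 against day 5. Without day 7 replicate 2 these were 0.51 and -0.65, and over all single omissions they ran from 0.51 to 2.07 and from -2.22 to -0.65. In order of group mean, control was highest, days 5, 2 and 14 followed, with means closer to each other than the SD of any of them, and day 7 was lowest.

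Epithelial marker lists were read beside these genes, and their part in the results was not tested. Of 16 markers of columnar colon epithelium, 4 were called lower and 0 higher on day 7 after quantile normalization, beside 15.9% of all probe sets called lower. At an unadjusted limma p under 0.05, 7 were lower and 0 higher on day 7, and the median difference was -0.33. On both scales 2 fell, beside 1.07% of all probe sets. These were Krt20 (-0.98 ± 0.25, limma adjusted p = 0.00838) and Slc26a3 (-1.47 ± 0.42, limma adjusted p = 0.0154). Epcam stood at -0.37 ± 0.15 on day 7 and was not called. On day 2 Slc26a3 fell, and on day 5 it fell while Cldn7 and Ceacam1 rose (1.23 ± 0.37, adjusted p = 0.0225, and 2.22 ± 0.48, adjusted p = 0.00349); on day 14 limma called 0 of 16, with 3 higher and 0 lower at an unadjusted p under 0.05. The mean of the columnar list, set to the control mean, ran from -0.64 to 0.20, -0.53 to 0.33, -0.85 to -0.08 and 0.25 to 0.44 on days 2, 5, 7 and 14, and from -0.16 to 0.16 in controls. All day 14 arrays thus lay above the controls in this mean, while Tgm3 stood at -0.93 on that day. Replicate 2 of day 7, with the lowest Tgm3 value, had the columnar mean of -0.08, and replicate 1, at -0.85, had a Tgm3 level of 8.54. Of 12 markers of stratified squamous epithelium, 8 were measured and 0 were called on both scales on any day; at an unadjusted limma p under 0.05 on the quantile-normalized values, 0, 1, 0 and 0 were higher and 1, 1, 2 and 1 lower on days 2, 5, 7 and 14. Their mean ran from -0.16 to -0.09, -0.11 to -0.04, -0.14 to -0.07 and -0.17 to 0.00 on days 2, 5, 7 and 14, and from -0.08 to 0.11 in controls. Krt5 and Krt14, the basal keratins, differed from control on day 7 by 0.01 ± 0.12 and 0.05 ± 0.13. On the same days on which Tgm1 stood above control, so did leukocyte markers: the mean of 6 neutrophil genes ran from 2.17 to 4.61, 3.88 to 5.48, 4.82 to 5.87 and 1.00 to 1.70 above the control mean on days 2, 5, 7 and 14, and from -0.15 to 0.11 in controls. Replicate 1 of day 2, where Tgm1 was at the control level, had the lowest neutrophil mean of days 2, 5 and 7, at 2.17. The same array also had the lowest macrophage, endothelial, fibroblast and matrix list means of these days, at 0.63, 0.15, 0.07 and -0.12. On day 14 the neutrophil mean was still 1.00 to 1.70 above the control mean, while Tgm1 differed from control by 0.01.

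**Figure D2:**
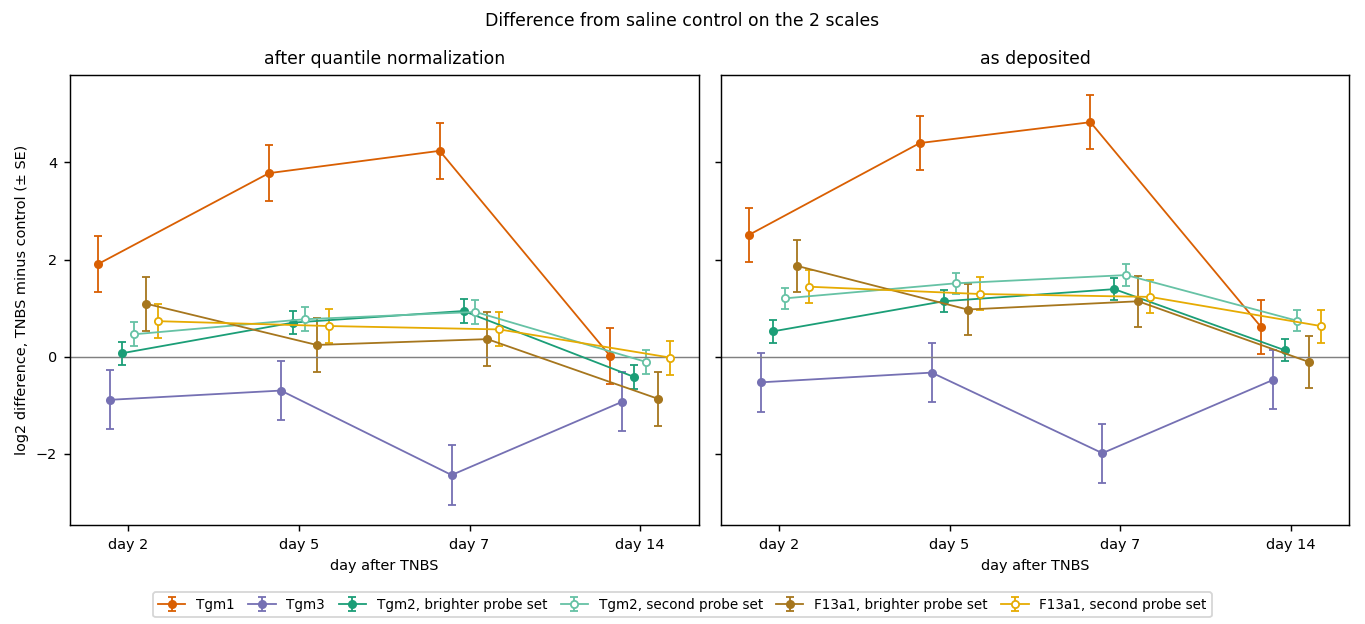
Log2 difference from saline control of the 6 probe sets on TNBS days 2, 5, 7 and 14, with bars of 1 SE, after quantile normalization and on the deposited values. The deposited differences lie higher, with 4.83 against 4.24 for Tgm1 on day 7, and Tgm1 and Tgm3 lie on opposite sides of 0 on day 7 on both scales.

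Tgm2, the stromal form, was read by 2 probe sets. The brighter had log2 levels of 8.38, 9.40 and 9.17 in the day 2 arrays and of 9.28, 9.80 and 9.77 in the day 5 arrays. The day 7 arrays read 10.37, 9.37 and 9.82, and the day 14 arrays 8.84, 8.38 and 8.27. Controls ran from 8.56 through a median of 8.91 to 9.21. All arrays of days 5 and 7 lay above the controls, and those of days 2 and 14 overlapped them. Means were 8.98 ± 0.54, 9.62 ± 0.29, 9.85 ± 0.50 and 8.50 ± 0.30 on days 2, 5, 7 and 14 (SD, n = 3 each) and 8.91 ± 0.24 in controls (SD, n = 6).

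The Tgm2 difference from control was 0.07 ± 0.24 on day 2 and -0.42 ± 0.24 on day 14, neither called on the quantile-normalized values. On both scales Tgm2 was called higher on day 5, at 0.70 ± 0.24 or 1.63-fold, and on day 7, at 0.94 ± 0.24 or 1.92-fold. Centring on the array medians in place of quantile normalization gave a day 5 difference of 0.38, not called, and the deposited values gave 1.14. The day 5 call was also lost when any of 6 arrays was left out, control replicates 1, 2, 4 and 5 and day 5 replicates 2 and 3, with differences between 0.61 and 0.87 over all 9 omissions. The day 7 call was lost without day 7 replicate 1, at 0.69. Day 14 stood at -1.26 ± 0.27 against day 7, called, with no overlap of arrays; the call was lost without day 7 replicate 1, at -0.99, without day 14 replicate 2, at -1.20, and without day 14 replicate 3, at -1.14. The dimmer probe set gave 0.46, 0.77, 0.92 and -0.11 (± 0.25) against control on days 2, 5, 7 and 14, called on days 5 and 7, and -0.94 ± 0.26 for day 14 against day 7, not called. Within an array the brighter minus the dimmer probe set was 1.41 to 2.34.

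F13a1, the subunit that stabilises fibrin, was read by 2 probe sets, and arrays of the same day differed widely on days 5 and 7. The brighter read 6.16, 7.01 and 6.13 (log2) in the day 2 arrays and 4.92, 7.28 and 4.55 in the day 5 arrays. It read 4.81, 7.21 and 5.10 in the day 7 arrays and 4.50, 4.48 and 4.44 in the day 14 arrays. Controls ran from 4.71 through a median of 5.26 to 6.01. Every day 2 array lay above every control and every day 14 array below every control, while days 5 and 7 overlapped the controls. On day 5, replicate 1 lay among the controls and replicate 3 below all of them, and on day 7 both lower arrays lay among the controls. Replicate 2 was far above the other 2 arrays on both day 5 and day 7, and the dimmer probe set showed the same pair of arrays, at 5.90 on day 5 and 5.85 on day 7, beside 4.32 to 4.53 in the others. Means of the brighter probe set were 6.43 ± 0.50, 5.58 ± 1.48, 5.71 ± 1.31 and 4.47 ± 0.03 on days 2, 5, 7 and 14 (SD, n = 3 each) and 5.35 ± 0.53 in controls (SD, n = 6).

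Against control F13a1 stood at 1.09, 0.24, 0.36 and -0.87 (± 0.56) on days 2, 5, 7 and 14, and none was called after quantile normalization. On the deposited values the day 2 difference was 1.87 and called, and the day 14 difference was -0.11, with overlap of arrays. Leaving out 1 array moved the day 5 difference between -0.61 and 0.75 and the day 7 difference between -0.39 and 0.81. Day 14 stood at -1.98 ± 0.61 against day 2 and at -1.24 ± 0.61 against day 7 on the deposited values, with no overlap of arrays in either, and neither was called. Leaving out 1 array gave -2.15 to -1.71 against day 2 and -1.68 to -0.53 against day 7, where -0.53 was the value without day 7 replicate 2. The dimmer probe set gave 0.73, 0.63, 0.56 and -0.02 (± 0.35) against control, none called. It separated day 2 from control as well, with levels of 4.82, 5.38 and 4.85 on day 2 and of 3.88 to 4.79 in controls. The dimmer probe set was low in controls, at percentiles 30.2 to 49.9 of their arrays. It did not separate day 14 after quantile normalization. As deposited, every day 14 array of the dimmer probe set lay above every control, with a difference of 0.63, not called.

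F13a1 is carried by macrophages and platelets, so their markers were read beside it; their part in the result was not tested. Of 13 measured macrophage markers, 10, 11, 12 and 1 rose on days 2, 5, 7 and 14 on both scales. The shares of all probe sets with such a rise were 9.13%, 12.1%, 12.4% and 5.61%. Among the macrophage markers that rose was Cd163, a haemoglobin scavenger receptor (2.09 ± 0.35 on day 2, limma adjusted p = 0.000812). Cd163 was also called higher on days 5 and 7, at 1.73 ± 0.35 and 1.69 ± 0.35, where F13a1 stood at 0.24 and 0.36. Of 6 platelet markers 2, 1, 2 and 0 rose on days 2, 5, 7 and 14, with a median difference of 0.21, 0.20, 0.20 and -0.01. At an unadjusted limma p under 0.05, 1 was lower on each of the 4 days. Among those that rose on day 2 was Pf4, a platelet chemokine (1.54 ± 0.38, limma adjusted p = 0.0114). Pf4 was not called on day 5 (1.07 ± 0.38). The macrophage mean was 2.27 above the control mean in replicate 2 of day 5, where F13a1 was high, and 1.57 and 1.36 in the other 2 arrays of that day; on day 7 it was 2.08 in replicate 2 and 1.77 and 1.97 in the others. The platelet mean in replicate 2 was 0.59 on day 5, against 0.08 and 0.31 in the others. On day 7 it was 0.46, against 0.36 and 0.39. Replicate 2 of day 5 also had the highest endothelial, fibroblast and neutrophil means of its day, at 1.87, 1.28 and 5.48. On day 7 replicate 2 had the lowest of these means, at 0.78, 1.08 and 4.82. Beside Tgm2, 1, 6 and 6 of 7 endothelial markers and 2, 5 and 6 of 8 fibroblast markers rose on days 2, 5 and 7. The shares of all probe sets that rose on both scales were 9.13%, 12.1% and 12.4%. Of 6 smooth muscle markers 0 rose on these days, and their mean ran from -0.82 to -0.31 on day 5, against -0.20 to 0.23 in controls. The part of these lists in the Tgm2 values was not tested either.

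**Figure D3:**
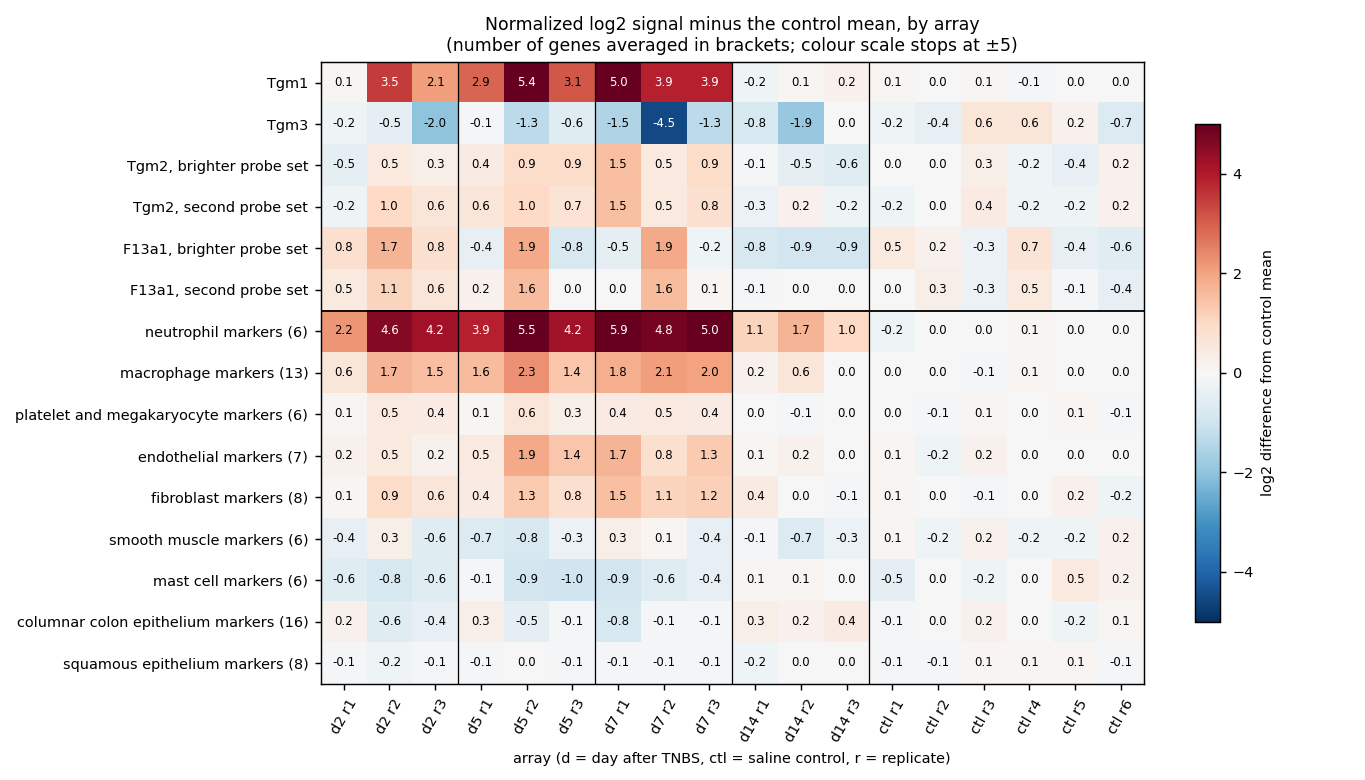
Each probe set of Tgm1, Tgm2, Tgm3 and F13a1 and the mean of each marker list, as the log2 difference from the control mean in each of the 18 arrays, with the TNBS arrays of days 2, 5, 7 and 14 left of the controls. Replicate 1 of day 2 shows Tgm1 at the control level with neutrophil, macrophage, endothelial and fibroblast means of 2.17, 0.63, 0.15 and 0.07. Replicate 2 of days 5 and 7 shows high F13a1 in both probe sets.

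Between days, 2 of the 4 members were called lower on day 14 than on day 7, Tgm1 and Tgm2, and 0 higher, beside 3.08% and 1.42% of all probe sets. On that comparison the arrays of 3 members, Tgm1, Tgm2 and F13a1, lay wholly below on day 14 and those of 0 wholly above, against 9.31% and 15.2% of all probe sets. For day 5 against day 2 and day 7 against day 5 limma called 0 of 4 members, beside 0.00966% higher and 0% lower, and 0.0161% higher and 0.00322% lower, of all probe sets; at an unadjusted p under 0.05 the counts were 2 higher and 0 lower, and 0 higher and 1 lower. Day 14 against day 2 also gave 0 calls, beside 0.00322% higher and 0.0161% lower, with 0 higher and 2 lower at an unadjusted p under 0.05. Arrays that did not overlap were found for 1 member there, F13a1, which was lower on day 14, against 5.54% of probe sets lower and 5.41% higher. They were found for 0 members in the other 2 comparisons, against 4.77% higher and 6.25% lower for day 5 against day 2, and 3.78% higher and 5.41% lower for day 7 against day 5. The median of the 4 members was 0.41 for day 5 against day 2, 0.21 for day 7 against day 5, -1.25 for day 14 against day 7 and -1.14 for day 14 against day 2.

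The rest of the family that could be read did not pass the test. Of 6 other genes, Tgm4, Tgm5 and Epb42 had a single-symbol probe set, where Tgm4 is the prostate form, Tgm5 an epidermal form and Epb42, erythrocyte band 4.2, a relative that has lost the catalytic activity. Their differences from control on days 2, 5, 7 and 14 were 0.14, 0.07, 0.13 and -0.01 for Tgm4, 0.00, -0.02, 0.03 and -0.02 for Tgm5 and -0.13, -0.03, -0.07 and -0.06 for Epb42. By limma 0 of the 3 were called after quantile normalization, and also 0 at an unadjusted p under 0.05, whereas the deposited values put all 3 genes above control, by up to 0.77 for Tgm4 on day 2.

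Fibrin, the substrate of factor XIII, is laid down by the clotting cascade. Of 16 measured genes of fibrin formation, 1, 5, 7 and 0 rose on days 2, 5, 7 and 14 on both scales and 0 fell. Over all probe sets, 9.13%, 12.1%, 12.4% and 5.61% rose on both scales and 0.522%, 1.09%, 1.07% and 0.135% fell. At an unadjusted limma p under 0.05, 0, 2, 0 and 1 genes of the list were lower and, on day 14, 1 was higher. The median difference was 0.06, 0.17, 0.34 and -0.07, beside -0.01, -0.02, -0.04 and -0.02 over all probe sets. Of the 7, Fga had a low signal, with means of 3.73 on day 7 and 3.39 in controls. Fgb, Fgg, F2, F9, F10 and Serpinc1 had control means of 3.29 to 3.72, and whether they were detected was not tested. F3, tissue factor, which starts the cascade, had log2 levels of 9.43, 7.06 and 7.70 in the day 7 arrays and of 4.77 to 5.59 in controls, with no overlap, and stood 2.89 ± 0.43 above control (adjusted p = 0.000169; limma). Vwf, the platelet tether of the vessel wall, stood 2.20 ± 0.43 above control (adjusted p = 0.00137), F5, the cofactor of factor Xa, 1.45 ± 0.34 (adjusted p = 0.00522) and Procr, the endothelial receptor of protein C, 1.19 ± 0.29 (adjusted p = 0.00568) on day 7. The count of 7 was 4 without day 7 replicate 1, and the count of 5 was 3 without day 5 replicate 2. On day 14 against day 7, F3, F5 and Procr fell, at -2.33, -1.86 and -1.34, with limma adjusted p of 0.0107, 0.0144 and 0.0321; without day 7 replicate 1, or day 14 replicate 2 or 3, 1 was called instead of 3, and without day 7 replicate 2, 6.

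Of 8 measured genes of fibrin removal, 4, 3, 4 and 0 rose on days 2, 5, 7 and 14, and S100a10 fell on day 7. The shares of all probe sets were 9.13%, 12.1%, 12.4% and 5.61% for a rise, and 1.07% for a fall on day 7. At an unadjusted limma p under 0.05, 2 genes of the list were higher and 1 lower on day 14. Among the day 2 rises was Plg at a low signal, with means of 3.94 on day 2 and 3.65 in controls. Plaur, the receptor that holds urokinase at the cell surface, had log2 levels of 8.87, 6.90 and 7.58 in the day 7 arrays and 4.30 to 5.08 in controls, and stood 3.10 ± 0.31 above control (adjusted p = 7.52e-06; limma). Plau, urokinase itself, stood 1.02 ± 0.31 above control (adjusted p = 0.021) and Anxa2, an annexin that binds plasminogen and its activator, 0.63 ± 0.16 (adjusted p = 0.00827). S100a10, the partner of Anxa2, stood at -0.62 ± 0.12 on day 7 (adjusted p = 0.00141). On day 7 the count of 4 was 1 without day 7 replicate 1. The day 2 count of 4 was 2 without control replicate 4 or 6 or day 2 replicate 2, and 1 without day 2 replicate 3. On day 14 against day 7, Plaur fell by 2.19 (adjusted p = 0.00228) and no other gene of the list was called.

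RNA signals rose on days 5 and 7 for several genes of matrix and surface proteins that Tgm2 or factor XIII acts on or binds. Protein was not measured. Of 17 measured genes, 4, 7, 11 and 1 rose on days 2, 5, 7 and 14, and Txn1, thioredoxin, fell on days 2, 5 and 7. Over all probe sets, 9.13%, 12.1%, 12.4% and 5.61% rose on both scales, and 0.522%, 1.09% and 1.07% fell on days 2, 5 and 7. The median of the list was 0.16, 0.65, 0.89 and -0.07 on the 4 days. Col5a1, a collagen of fibril cores, had 9.35, 9.41 and 9.37 in the day 7 arrays and 7.35 to 7.97 in controls, and stood 1.62 ± 0.24 above control (adjusted p = 0.000162; limma). The fibrillar collagens Col1a1 and Col3a1 stood 2.29 ± 0.39 and 1.16 ± 0.17 above control (adjusted p = 0.00047 and 0.00017), and Vtn, vitronectin, 1.01 ± 0.16 (adjusted p = 0.000335). Txn1 stood at -0.58 ± 0.13 on day 7 (adjusted p = 0.00344). The day 2 count of 4 was 2 without any of control replicates 2 to 5, 1 without day 2 replicate 3 and 0 without day 2 replicate 2. The day 5 count of 7 was 4 without day 5 replicate 2, and the single day 14 rise, of Vtn, was not called without day 14 replicate 1 or 2. On day 14 against day 7, 8 of 17 fell, with Col1a1 at -2.12 (adjusted p = 0.00997); without day 7 replicate 1, day 14 replicate 2 or day 14 replicate 3, 4, 3 and 4 were called.

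**Figure D4:**
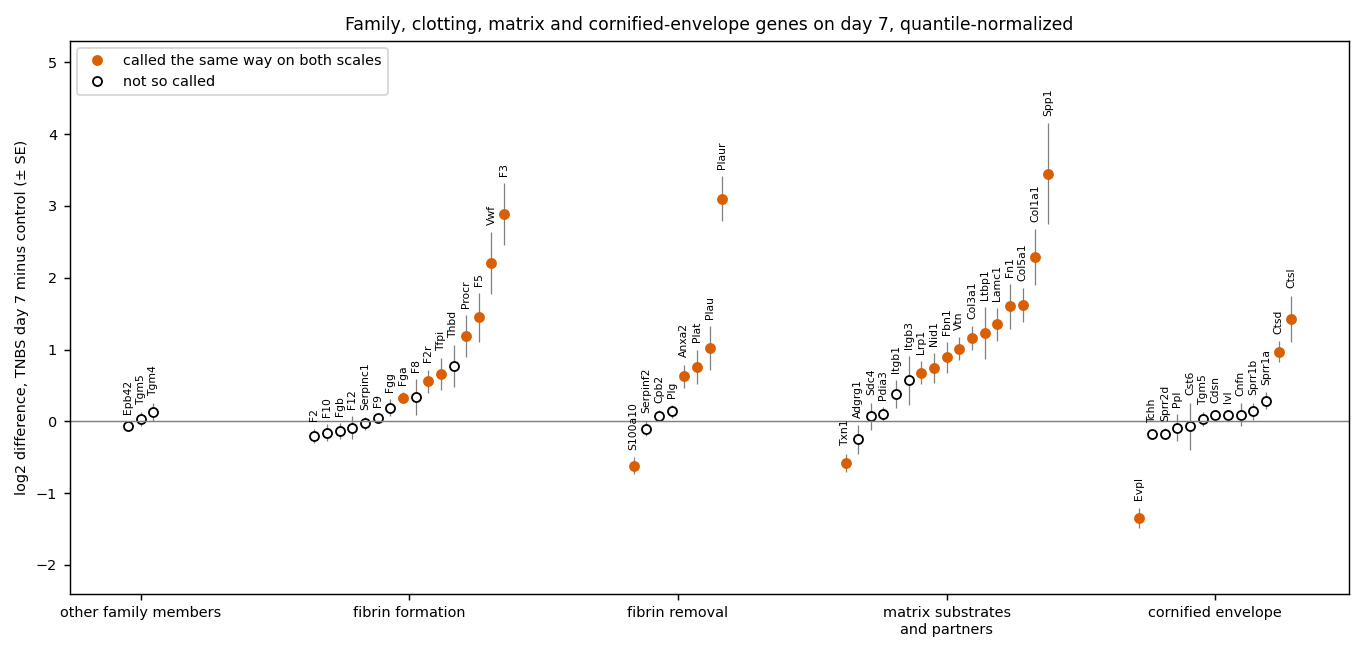
Log2 difference of TNBS day 7 from saline control after quantile normalization, with bars of 1 SE, for every measured gene of the family, fibrin formation, fibrin removal, matrix substrate and cornified envelope lists; filled points mark genes called in 1 direction by both scales. In the matrix list 11 of 17 genes rose, and among the cornified envelope genes Evpl lies lowest, at -1.34.

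The cornified envelope list holds the proteins that Tgm1 and Tgm3 join in skin, with the proteases that process these enzymes. Of its 13 measured genes, 2, 4, 2 and 1 rose on days 2, 5, 7 and 14 on both scales and 1 fell, on day 7. The shares of all probe sets were 9.13%, 12.1%, 12.4% and 5.61% for a rise, and 1.07% for a fall on day 7. The median difference of the list was 0.14, 0.13, 0.09 and 0.01. Cdsn, counted on day 2, and Sprr1a, counted on days 5 and 14, had low signals. Cdsn averaged 4.24 on day 2 and 3.95 in controls, and Sprr1a 4.18 on day 14 and 3.79 in controls. On day 7 the genes that rose were Ctsd and Ctsl, the lysosomal cathepsins D and L, at 0.97 ± 0.15 (adjusted p = 0.000187) and 1.43 ± 0.32 (adjusted p = 0.00328; limma), which are proteases and not envelope proteins. Evpl, envoplakin, a scaffold of the envelope, had 5.98, 5.87 and 5.81 in the day 7 arrays and 7.00 to 7.49 in controls, a difference of -1.34 ± 0.14 (adjusted p = 1.22e-05); its deposited difference of -0.56 was called as well on day 7, but was 0.13 on day 5 and 0.18 on day 14, where the quantile-normalized one was -0.63 on each day. Ppl, periplakin, its partner, stood 0.87 ± 0.19 above control on day 5 (adjusted p = 0.00374). The day 2 count of 2 was 4 without day 2 replicate 1 and 1 without day 2 replicate 2. The day 5 count of 4 was 2 without day 5 replicate 2 or 3, and the day 14 rise was not called without control replicates 1, 2, 4 or 6 or any day 14 array.

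Genes whose course over the 18 arrays was most like each member were found by the mean absolute difference of log2 values, each set to its own mean, among 13979 genes. For Tgm1, whose group means span 4.24, they were Pglyrp1, a peptidoglycan recognition protein of neutrophil granules (0.25), Lilrb4, an inhibitory receptor of leukocytes (0.29), and Igsf6, an immunoglobulin superfamily member (0.37). Pglyrp1 averaged 6.58, 7.84, 8.39 and 4.19 on days 2, 5, 7 and 14 and 4.25 in controls. For Tgm2, with a span of 1.36, they were Ptk7 (0.18), Grk5 and Zyx (0.20 each). For Tgm3, with a span of 2.44, they were Akr1c15 (0.42), Ndrg2 (0.46) and Foxa2, a transcription factor of gut epithelium (0.48). For F13a1, with a span of 1.96, they were Cd36, a scavenger receptor (0.50), Gsta1, a glutathione transferase, and Lyve1, the hyaluronan receptor of lymphatic vessels and some macrophages (0.51 each), and Lyve1 is in the macrophage list above. Cd36 averaged 7.34, 6.77, 7.34 and 5.82 on days 2, 5, 7 and 14 and 6.29 in controls. Beside the span of the group means, the distances were smallest for Tgm1 and largest for F13a1.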

How the data were processed

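The deposited table holds 1 value per probe set and array. Per the labels' protocols, total RNA was hybridised by Affymetrix procedures and the authors normalized the arrays with the Bioconductor package affyPLM. The deposited values were used as log2 signals. Not given in the sources used here are the log base, the background step, the software version and whether the arrays were normalized jointly. Of 31099 probe sets, 57 array controls were left out. With R 4.3.3 and limma 3.58.1, 1 coefficient per group was fitted to all 18 arrays, with two-sided moderated tests and Benjamini-Hochberg adjustment over 31042 probe sets. Quantile normalization is the scale against control, and it removes a change shared by most genes. The precision is limited by 3 arrays per day, and p-values measure only the spread between these rats. Where a listed gene had several probe sets of 1 symbol, the brightest over the 18 arrays stands for it; symbols come from the platform annotation, which can be old. The members and lists were chosen with earlier results of these data known. Named genes of the family, fibrin, matrix and cornified envelope lists are the 4 of each list with the smallest p of the F test over the 4 differences from control, and all measured genes of the family list; others, marker genes included, were named because they answer a count, after their values were seen. Promoter windows are from RefSeq (GRCr8). The fit was tested on simulated data. Alternatives were the scale, a filter on dim probe sets, 1 probe set per gene, the variance prior, the arrays fitted, a replicate block, array weights, a stricter threshold and leaving out each array.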

Additional observations from a re-analysis of the deposited data

Results flagged for a closer look

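The Tgm1 difference between day 14 and day 7 was picked out because it tests the difference between the effects of TNBS on these days directly: it was -4.22 on the deposited log2 values, with 3 of 3 day 14 arrays below 3 of 3 day 7 arrays. The Tgm2 difference between the same days was picked out for the same reason, at -1.26, also with no overlap of arrays. Both genes were chosen with results of these arrays known, so neither is independent evidence. Markers of neutrophils (5 of 6 measured), macrophages (9 of 13), fibroblasts (5 of 8) and endothelium (3 of 7) were called lower on the same comparison, beside 3.08% of all probe sets. The part of these markers in the 2 values was not tested. No group of 6 control arrays held a member value far from the others by Dixon's test, and groups of 3 were not tested.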

How the results depend on the processing

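The members called against control numbered 1, 2, 3 and 0 on days 2, 5, 7 and 14, and 2 for day 14 against day 7. The day 2 count was 3 on the deposited values, 2 in a fit of the 2 groups alone, 0 with a replicate block and 0 at an adjusted p under 0.01. The day 5 count was 1 with median centring, 1 with the replicate block and 1 at an adjusted p under 0.01. The day 7 count was 2 with the replicate block, under which Tgm2, at 0.85, was not called. Median centring gave 1 on day 14. Day 14 against day 7 gave 1 in a fit of the 2 groups and 1 at an adjusted p under 0.01. Leaving out 1 array gave 0 to 1 on day 2, 1 to 2 on day 5, 2 to 3 on day 7, 0 on day 14, 1 to 2 for day 14 against day 7 and 0 to 1 for day 14 against day 2. On the deposited values, Epb42 turned to 0.41, 0.51, 0.44 and 0.45 on days 2, 5, 7 and 14, Tgm5 to 0.50, 0.48 and 0.44 on days 2, 5 and 14, and on day 14 Tgm4 to 0.58, Evpl to 0.18 and S100a10 to 0.02; Evpl was 0.13 on day 5. The array medians differ between treated and control arrays as deposited, and the part of this in these turns was not tested. Whether the replicate numbers pair the arrays was not settled. Deviations from the group mean correlated at -0.329 to 0.469 (mean 0.0772) in 30 pairs of the same number. They correlated at -0.549 to 0.333 (mean -0.0241) in 96 others. The cause of the other changes between settings was not tested either.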

Other observations

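Markers of mast cells and smooth muscle were also read, as other cell types of the colon wall that can carry Tgm2. Of 6 mast cell markers, 2 were called lower after quantile normalization on each of days 2, 5 and 7, and 1 on both scales. Their mean, set to the control mean, ran from -0.78 to -0.55, -0.98 to -0.10, -0.91 to -0.38 and -0.05 to 0.11 on days 2, 5, 7 and 14, against -0.46 to 0.51 in controls. Of 6 smooth muscle markers, 2, 2, 1 and 1 were called lower after quantile normalization on days 2, 5, 7 and 14, and 1, 2, 0 and 1 on both scales. Their mean ran from -0.58 to 0.30, -0.82 to -0.31, -0.45 to 0.30 and -0.71 to -0.11, against -0.20 to 0.23 in controls. Over all probe sets, 9.87%, 14.5%, 15.9% and 6.09% were called lower after quantile normalization on these days. On both scales the shares were 0.522%, 1.09%, 1.07% and 0.135%.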
